A study of Homo sapiens with 6 samples.

Results

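Transcripts of 10 glycolysis enzymes (HK2, GPI, PFKP, ALDOA, GAPDH, PGK1, PGAM1, ENO1, PKM and LDHA) were measured by RNA-seq in MV4-11 cells. Each gene was taken by its symbol, and all 10 were found among the 26364 genes of the deposited table. MV4-11, a human cell line from an acute myeloid leukaemia, carries an internal tandem duplication in the receptor tyrosine kinase gene FLT3, so cells of both groups share that allele. In the 22d group, 3 libraries were made from MV4-11 cells exposed for 18 hours to 22d, known as an inhibitor of the deacetylase HDAC8, at a labelled 10 nM. In the DMSO group, 3 libraries were made from MV4-11 cells given the solvent DMSO for the same 18 hours. The labels number the libraries but leave unsaid whether each had its own culture; p-values here thus cover no more than the scatter among the 6 libraries, which may be technical. All results are from 1 cell line.

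Glycolysis turns glucose into pyruvate in the cytosol, and lactate dehydrogenase then turns pyruvate into lactate. The early enzymes, from hexokinase to aldolase, spend ATP to trap and split the sugar. The later ones, from glyceraldehyde-3-phosphate dehydrogenase to pyruvate kinase, yield ATP and NADH. Many leukaemia cells are known to run this pathway fast in the presence of oxygen, and MYC and the hypoxia factor HIF1A are known activators of several of its genes.

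With 22d, 9 of the 10 enzyme transcripts fell and 0 rose; HK2 did not pass the test. The falls ran from LDHA, 3.03-fold lower with 22d, to GAPDH, 1.40-fold lower. The median log2 fold change of the 10 genes was -0.88, against 0.01 over all 13297 genes tested. A gene was called at an adjusted p under 0.05 by limma with Benjamini-Hochberg adjustment over all genes tested, and by that rule 58% of all genes were called in either direction and 29.6% were called lower. All 10 enzymes are abundant transcripts. Among the 4583 tested genes averaging 1000 normalized counts or more, a limit chosen after seeing the data, 45.3% were called lower, with a median of -0.21. At least 2-fold falls were called for 4 of the 10 (LDHA, PGAM1, PGK1 and ENO1), and 9.87% of all genes fell and 9.9% rose that far. In bulk RNA, fewer cells of a type and less RNA per cell cannot be told apart.

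Library totals lay between 19995430 and 23749257 reads, and each enzyme had at least 2978 reads in every library. The values are read counts divided by a size factor per library, called normalized counts here. Of 12 myeloid markers, 11 had a mean of at least 10 normalized counts; CD14 was the exception, and CD3D, MS4A1 and COL1A2, which mark other lineages, had 0 reads in all 6 libraries. The 12 myeloid markers summed to between 53272 and 64541 normalized counts with 22d and between 78938 and 98823 with DMSO. LYZ, the lysozyme gene, held 11407 to 21870 with 22d and 38415 to 56489 with DMSO. MPO was also lower, at 56.7 to 79.7 with 22d and 310 to 455 with DMSO. So was CD14, at 0 to 4.20 with 22d and 6.83 to 10.3 with DMSO. Some myeloid markers moved the opposite way: PTPRC held 1902 to 2629 with 22d and 679 to 762 with DMSO. FLT3, CSF1R, KIT, ANPEP and ITGAM were also higher in every 22d library than in every DMSO library. CD33, SPI1 and CEBPA overlapped between the groups. The part of these markers in the results below was not tested. Among markers of other lineages, KRT8 held between 297 and 381 with 22d and between 140 and 165 with DMSO, and PECAM1 between 496 and 582 with 22d and between 213 and 312 with DMSO.

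LDHA encodes the lactate dehydrogenase subunit best known for making lactate (chromosome 11, 18394388 to 18408425, coordinates here and below from GENCODE 29 on GRCh38). Its libraries held 4369, 5738 and 5218 normalized counts with 22d, against 17559, 13860 and 15016 with DMSO. The lowest DMSO library was more than double the highest 22d library. The log2 fold change was -1.60 (standard error 0.13, adjusted p = 4.5e-07 by limma), the largest fall of the 10.

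Transcripts of the steps from phosphoglycerate kinase to enolase changed nearly as much. PGAM1, a phosphoglycerate mutase gene (chromosome 10, 97426160 to 97433441), held 3989, 4957 and 5122 normalized counts with 22d, against 14502, 13067 and 11545 with DMSO. It fell by 1.48 on the log2 scale (standard error 0.12, adjusted p = 7.7e-07 by limma). PGK1, whose enzyme makes the pathway's earliest ATP (chromosome X, 77910739 to 78129296), held 5178, 6566 and 5942 normalized counts with 22d, against 16136, 13722 and 13289 with DMSO. In both genes the groups lay far apart and did not overlap. PGK1 fell by 1.29 on the log2 scale (standard error 0.12, adjusted p = 1.6e-06 by limma). ENO1, the main enolase gene outside muscle and neurons (chromosome 1, 8861000 to 8879250, minus strand), held 28518, 34721 and 34335 normalized counts with 22d, against 80822, 82561 and 70624 with DMSO. ENO1 fell by 1.26 on the log2 scale (standard error 0.12, adjusted p = 2.2e-06 by limma), and again no library of one group reached the other.

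PKM, the pyruvate kinase gene that catalyses the last ATP-making step (chromosome 15, 72199029 to 72231822, minus strand), fell less. It held 15557, 19091 and 18525 normalized counts with 22d, against 28869, 29282 and 24298 with DMSO, a log2 fold change of -0.63 (standard error 0.12, adjusted p = 0.00052 by limma). Counts per gene do not separate the muscle-type and embryonic-type splice forms of PKM. GAPDH, which catalyses the pathway's oxidation step and often serves as a reference gene (chromosome 12, 6533927 to 6538374), held 83264, 79005 and 86534 normalized counts with 22d, against 119479, 123263 and 104736 with DMSO. It was the most abundant of the 10, and its log2 fold change of -0.48 (standard error 0.12, adjusted p = 0.0034 by limma) was the smallest called.

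Among the early enzymes, the isomerase gene GPI (chromosome 19, 34359480 to 34402413) held 10478, 12815 and 13325 normalized counts with 22d, against 23479, 26418 and 21823 with DMSO. It fell by 0.97 on the log2 scale (standard error 0.12, adjusted p = 1.9e-05 by limma), and its mean with 22d was 51.1% of the mean with DMSO. PFKP, the platelet-type subunit of phosphofructokinase, the enzyme of the committed step (chromosome 10, 3066333 to 3137712), held 3076, 3354 and 3769 normalized counts with 22d, against 5436, 6849.9 and 5423 with DMSO. PFKP fell by 0.79 on the log2 scale (standard error 0.12, adjusted p = 0.00010 by limma), and DMSO replicate 2 stood above the other DMSO libraries. ALDOA, the aldolase gene that splits the sugar (chromosome 16, 30064164 to 30070457), held 29130.4, 31216 and 30947 normalized counts with 22d, against 46645, 46602 and 39774 with DMSO. Its log2 fold change was -0.54 (standard error 0.11, adjusted p = 0.00092 by limma), with 22d libraries close together and DMSO replicate 3 lowest of its group.

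HK2, the inducible hexokinase gene at the entry of the pathway (chromosome 2, 74833981 to 74893359), was the exception. It held 3289, 2972 and 3108 normalized counts with 22d, against 3389, 3545 and 3549.8 with DMSO. The 22d libraries all lay below the DMSO libraries by a small margin. The log2 fold change of -0.16 did not pass (95% interval -0.37 to 0.05, limma adjusted p = 0.16), and its sign turned under quantile normalization (0.13) and under scaling by library totals (0.06). The remaining 9 enzymes kept their direction and their call under these 2 scalings, with smaller sizes. Quantile normalization gave -0.48 for PFKP, -0.24 for ALDOA and -0.36 for PKM, and library totals gave -0.32 for ALDOA, -0.26 for GAPDH and -0.41 for PKM. In all 10 genes every 22d library lay below every DMSO library, as did 33.3% of all genes tested, while 32.1% had every 22d library above every DMSO library. Within the 22d group, replicate 1 was the lowest library for 8 of the 10 genes; within the DMSO group, replicate 3 was the lowest for 8. In the authors' deposited table the same 9 genes were lower at an adjusted p under 0.05, with log2 fold changes between -1.58 for LDHA and -0.48 for GAPDH, against a background of 23.6% of genes lower in that table.

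**Figure D1:**
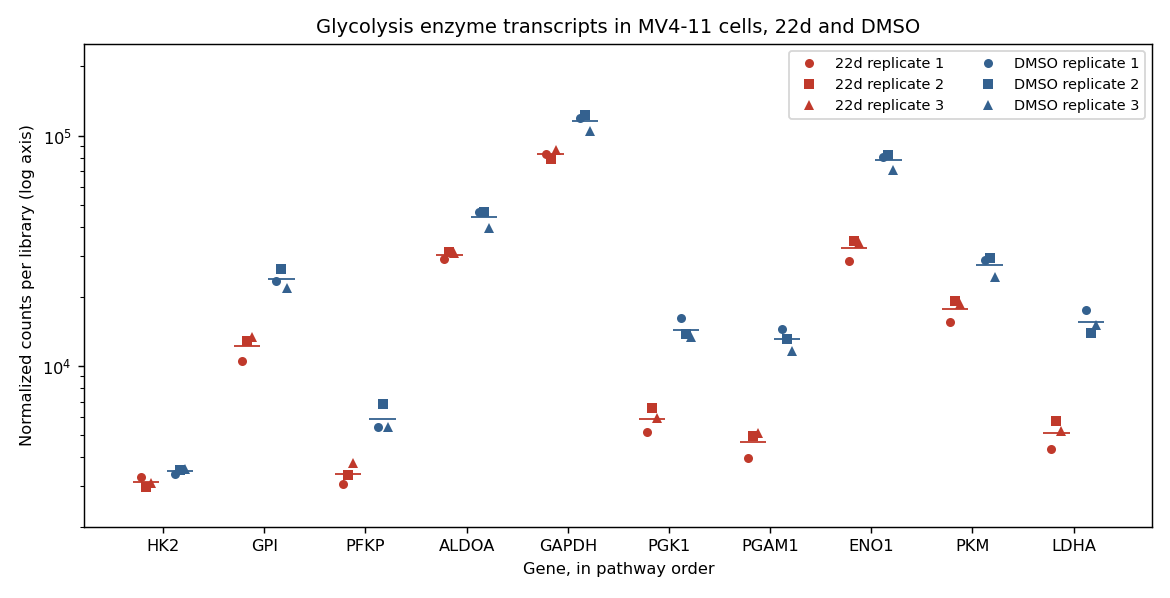
Normalized counts of the 10 glycolysis enzyme genes in each library (log axis), in pathway order, with 22d in red left of DMSO in blue; symbols are the 3 replicates and horizontal lines the group means. Every 22d library lies below every DMSO library for each gene, with the widest gap at LDHA and the narrowest at HK2.

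The promoters of LDHA, PGK1, ENO1, GAPDH and HK2 are printed side by side. They cover the largest fall (LDHA), further large falls (PGK1 and ENO1), the smallest called fall (GAPDH) and the enzyme that did not pass (HK2). The window of PGAM1, whose fall was the largest after that of LDHA, is not printed. The promoter windows come from RefSeq on GRCh38.p14 and run from 250 bases before to 50 bases after an annotated start, 5′ to 3′ on the gene's strand. The windows are chr11:18394313-18394612 for LDHA (plus strand), chrX:78103998-78104297 for PGK1 (plus strand) and chr1:8878637-8878936 for ENO1 (minus strand). Those of GAPDH and HK2 are chr12:6535014-6535313 (plus strand) and chr2:74834920-74835219 (plus strand), and LDHA and HK2 each have a further window that is not printed. Capitals mark ACGTG on either strand, a form of the core letters of the hypoxia factor's element. The form GCGTG was neither marked nor counted. Where the 6 letters CACGTG are capital, they are also the E-box letters known to be bound by MYC and MAX.
LDHA: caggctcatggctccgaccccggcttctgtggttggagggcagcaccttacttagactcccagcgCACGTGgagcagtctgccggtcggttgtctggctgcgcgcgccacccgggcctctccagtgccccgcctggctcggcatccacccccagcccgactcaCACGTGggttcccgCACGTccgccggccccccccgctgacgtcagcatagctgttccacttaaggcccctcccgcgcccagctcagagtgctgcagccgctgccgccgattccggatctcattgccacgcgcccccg
PGK1: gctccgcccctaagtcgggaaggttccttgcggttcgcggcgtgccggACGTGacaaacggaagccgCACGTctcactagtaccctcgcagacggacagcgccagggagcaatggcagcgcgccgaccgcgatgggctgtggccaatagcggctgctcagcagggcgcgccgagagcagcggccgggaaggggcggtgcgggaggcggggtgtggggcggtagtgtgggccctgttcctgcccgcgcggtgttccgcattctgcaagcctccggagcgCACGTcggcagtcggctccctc
ENO1: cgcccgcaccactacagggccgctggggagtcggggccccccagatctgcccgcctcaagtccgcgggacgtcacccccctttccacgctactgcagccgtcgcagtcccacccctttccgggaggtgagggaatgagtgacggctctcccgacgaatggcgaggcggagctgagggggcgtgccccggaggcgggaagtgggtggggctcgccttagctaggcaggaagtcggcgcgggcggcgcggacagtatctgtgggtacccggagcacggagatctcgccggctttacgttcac
GAPDH: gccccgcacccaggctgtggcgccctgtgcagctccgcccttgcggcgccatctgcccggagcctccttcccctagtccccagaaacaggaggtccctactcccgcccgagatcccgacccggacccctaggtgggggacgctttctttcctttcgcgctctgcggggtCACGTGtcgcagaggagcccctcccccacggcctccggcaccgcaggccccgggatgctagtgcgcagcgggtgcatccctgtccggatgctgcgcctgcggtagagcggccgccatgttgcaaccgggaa
HK2: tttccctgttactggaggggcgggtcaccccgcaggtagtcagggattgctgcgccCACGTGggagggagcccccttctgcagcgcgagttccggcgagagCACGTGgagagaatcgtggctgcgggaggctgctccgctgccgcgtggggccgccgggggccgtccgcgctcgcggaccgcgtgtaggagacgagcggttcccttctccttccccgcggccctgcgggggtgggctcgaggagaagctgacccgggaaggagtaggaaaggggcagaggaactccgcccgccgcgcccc

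The LDHA window printed held CACGTG at 2 places and 5 matches to ACGTG, where each CACGTG counts as 2 because it reads the same on both strands. The other LDHA window, chr11:18396101-18396400, held neither. The HK2 window printed also held CACGTG at 2 places, although HK2 did not pass the test. The other HK2 window, chr2:74833877-74834176, held no CACGTG and 2 matches to ACGTG. GAPDH held CACGTG at 1 place, PGK1 held ACGTG at 3 places without CACGTG, and ENO1 held neither. The PGAM1 window, which is not printed, also held neither. All 10 genes matched the RefSeq table, with 17 windows in all because some genes have several annotated starts. CACGTG was found in windows of 4 of the 10 genes, against 8.77% of 27305 genes, and ACGTG in 7 of the 10, against 24.9%. By window, CACGTG was present in 4 of 17, against 7.26% of 35116, and ACGTG in 10 of 17, against 21.4%. The GC-box letters GGGCGG were found in 9 of the 10 genes, against 48.3% of genes, and in 11 of 17 windows, against 45.0%. These matches describe letters only; the starts used in MV4-11 and the binding of any factor were not measured.

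As a share of all reads in genes, the 10 enzymes together took 0.952%, 1.00% and 1.04% of the 22d libraries, against 1.53%, 1.49% and 1.41% of the DMSO libraries. The mean share was 0.998% ± 0.0429 with 22d and 1.48% ± 0.0578 with DMSO (n = 3 each, SD). GAPDH alone accounted for 0.396% to 0.434% of reads with 22d and 0.477% to 0.512% with DMSO. ENO1 took 0.145% to 0.174% with 22d and 0.322% to 0.347% with DMSO.

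Levels per kilobase of exon, over all exons annotated in GENCODE 29, allowed the genes to be ranked against each other. With 22d, GAPDH led at 27821 ± 1266 normalized counts per kilobase, followed by ALDOA at 7771 ± 290 and ENO1 at 6165 ± 659. With DMSO, GAPDH led at 38855 ± 3284, followed by ENO1 at 14784 ± 1222 and ALDOA at 11323 ± 1010 (n = 3 each, SD, here and in the next sentences). ENO1 thus stood below ALDOA in 22d libraries and above it in DMSO libraries, and in neither group did the libraries of the 2 genes overlap. PKM and PGAM1 also changed places: with 22d PKM had 2068 ± 221 per kilobase and PGAM1 1826 ± 238, with overlapping libraries, and with DMSO PGAM1 had 5077 ± 576 and PKM 3207 ± 323, without overlap. LDHA stood at 823 ± 111 per kilobase with 22d and 2493 ± 305 with DMSO. HK2 was the lowest in both groups, at 515 ± 26.2 with 22d and 576 ± 15.1 with DMSO. Neighbours in this order that overlapped were GPI and PGK1, and LDHA and PFKP, with 22d, and PKM with PGK1, PGK1 with LDHA, and LDHA with GPI, with DMSO.

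Against GAPDH of the same library, a comparison added after seeing the data that does not depend on the size factors, the falls of the enzymes were unequal. The log2 ratio of LDHA to GAPDH was -4.25, -3.78 and -4.05 with 22d, against -2.77, -3.15 and -2.80 with DMSO. PGAM1, PGK1, ENO1, GPI and PFKP were likewise lower relative to GAPDH in every 22d library than in every DMSO library. HK2 was higher relative to GAPDH, by a mean difference of 0.32 on the log2 scale. ALDOA and PKM overlapped between the groups, with differences of -0.06 and -0.15. For the 7 ratios without overlap, the two-sided exact permutation p was 0.10, the smallest that 3 against 3 allows, and 0.13 after Benjamini-Hochberg adjustment over the 9 ratios. For ALDOA and PKM the exact p was 0.40.

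Isozymes of the same steps did not all move with the 10 enzymes. Of 23 such genes in the table, 15 passed the filter of a mean of at least 10 normalized counts; 3 rose, 5 fell and 7 did not pass the test by limma, with a median log2 fold change of -0.09. Among all genes, 28.5% were called higher and 29.6% lower. Triosephosphate isomerase has a single gene, TPI1, which lies between aldolase and GAPDH in the pathway. It held 5569 ± 526 normalized counts in 22d libraries and 15181 ± 1562 in DMSO libraries (n = 3 each, SD), a fall of 1.45 on the log2 scale (standard error 0.11, adjusted p = 4.6e-07 by limma).

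ALDOC, the brain-type aldolase gene, rose. Its libraries held 1233, 1399 and 1116 normalized counts with 22d, against 234, 225 and 225 with DMSO, a log2 fold change of 2.44 (standard error 0.13, adjusted p = 3e-08 by limma). ALDOA was still the more abundant of the pair per kilobase, at 7771 against 427 for ALDOC with 22d and 11323 against 78.0 with DMSO. PGAM2, the muscle-type mutase gene, held 1631, 1629.9 and 1746 normalized counts with 22d, against 258, 412 and 475 with DMSO, a log2 fold change of 2.17 (standard error 0.18, adjusted p = 8e-07 by limma). Per kilobase, PGAM2 stood at 1947 ± 78.0 with 22d and 445 ± 130 with DMSO, so that it lay beside PGAM1 (1826) with 22d and far below it (5077) with DMSO. PGAM2 shares 857 exon bases, the whole of its exon length, with DBNL on the opposite strand. The strand setting of the counting was not given in the sources used here. DBNL itself held 4972 ± 917 normalized counts in 22d libraries and 9347 ± 1104 in DMSO libraries (n = 3 each, SD), a log2 fold change of -0.92. ENO3, the muscle-type enolase gene, rose by 1.10 on the log2 scale (standard error 0.18, adjusted p = 2e-04 by limma), at 180 ± 10.1 normalized counts in 22d libraries and 84.2 ± 13.9 in DMSO libraries (n = 3 each, SD). ENO3 shares 111 exon bases with PFN1 on the opposite strand, and PFN1 had a log2 fold change of -1.14.

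Phosphofructokinase is built from liver, muscle and platelet subunits. PFKL, the liver-type gene and the most abundant of them per kilobase, fell by 0.98 on the log2 scale (standard error 0.15, adjusted p = 0.00011 by limma), with 7002, 8975 and 10099 normalized counts with 22d, against 16042, 20741 and 14781 with DMSO. PFKM, the muscle-type gene, stood at 81.5 ± 2.14 in 22d libraries and 80.6 ± 8.14 in DMSO libraries (n = 3 each, SD) and did not pass. HK1, the constitutive hexokinase gene, stood at 2507 ± 152 in 22d libraries and 2678 ± 163 in DMSO libraries (n = 3 each, SD) and did not pass either. HK3, a myeloid hexokinase gene, was called lower at -1.08, but its 22d libraries were uneven at 54.7, 191 and 191 normalized counts, against 287, 263 and 253 with DMSO. Without 22d replicate 1 the HK3 value was -0.48, still called (limma adjusted p = 0.014). The HK3 call was lost without DMSO replicate 1 (limma adjusted p = 0.052), with DESeq2 (adjusted p = 0.15) and with scaling by library totals. BPGM, which makes and breaks a phosphoglycerate side product, was called lower at -0.50 (limma adjusted p = 0.045), with overlapping groups. The BPGM call was lost without 22d replicates 1 or 3 and without DMSO replicates 1 or 2 (limma adjusted p between 0.09 and 0.18), with edgeR (adjusted p = 0.055), with DESeq2 (0.056), with no filter and under library totals.

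LDHB encodes the other main lactate dehydrogenase subunit. It held 9098, 9134 and 8834 normalized counts with 22d, against 12260.5, 10206 and 11306.5 with DMSO. Its log2 fold change of -0.32 (standard error 0.10, adjusted p = 0.018 by limma) was called lower, but the call was lost under library totals (-0.09, adjusted p = 0.42), without 22d replicate 3 (adjusted p = 0.060) and without DMSO replicate 1 (adjusted p = 0.10), and the sign turned under quantile normalization (0.02). The log2 ratio of LDHA to LDHB was -1.06, -0.67 and -0.76 with 22d, against 0.52, 0.44 and 0.41 with DMSO. Per kilobase, LDHA stood at 823 and LDHB at 3025 with 22d, and LDHA at 2493 and LDHB at 3774 with DMSO.

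The difference in the LDHA to LDHB ratio was -1.29 on the log2 scale, and no library of one group reached the other. The ratio of ALDOA to ALDOC differed by -2.98, that of ENO1 to ENO2 by -1.91 and that of PFKP to PFKM by -0.81. ENO2 was low, with 24 to 82 reads in a library and overlapping groups, and did not pass the test (limma adjusted p = 0.082). Without single libraries the ENO1 to ENO2 difference ran from -2.24 to -1.60. HK2 to HK3 (0.91) and PFKP to PFKL (0.19) were higher with 22d without overlap, and without 22d replicate 1 these differences were 0.28 and 0.11. Each of these 6 ratios had a two-sided exact permutation p of 0.10, the smallest possible with 3 against 3, and 0.12 after adjustment over the 7 pairs. HK2 to HK1 overlapped (-0.07, exact permutation p = 0.30). With 3 libraries in each group, no ratio could reach 0.05 by this exact test.

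**Figure D2:**
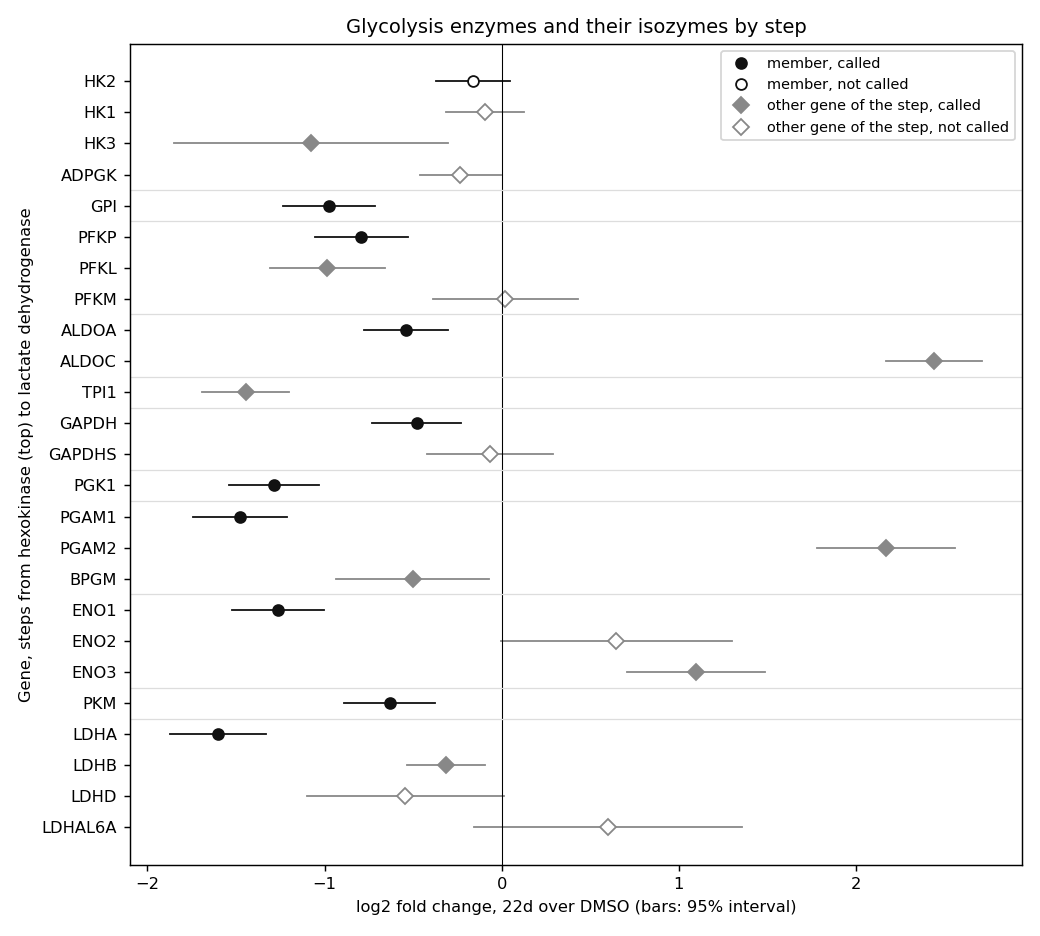
The log2 fold change (22d over DMSO) with its 95% interval for the 10 glycolysis enzymes (circles) and the 15 tested isozymes and same-step genes (diamonds), with the steps in order from hexokinase at the top to lactate dehydrogenase at the bottom; filled symbols passed the limma test. Filled circles all lie left of 0, while ALDOC (2.44), PGAM2 (2.17) and ENO3 (1.10) lie right of it.

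**Figure D3:**
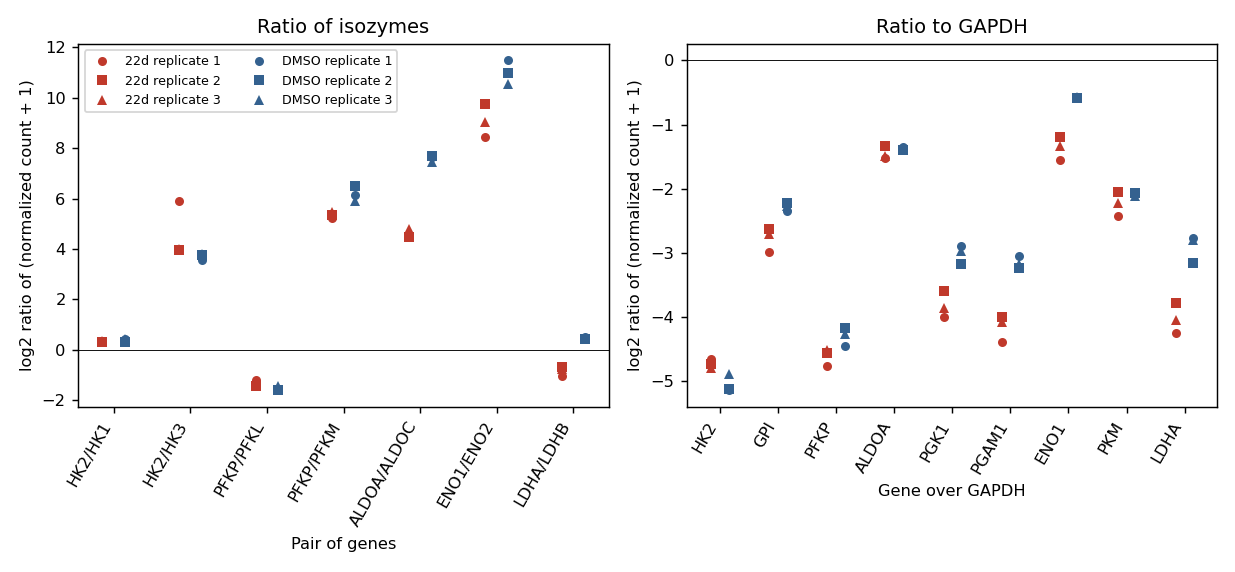
The log2 ratio of pairs of genes in each library, isozyme pairs on the left and each enzyme over GAPDH on the right, with 22d in red left of DMSO in blue and symbols for the 3 replicates. LDHA lies below LDHB in normalized counts in every 22d library and above it in every DMSO library, and ALDOA and PKM overlap between groups relative to GAPDH.

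Genes that control the early steps moved the other way. Of 10 in the list for phosphofructokinase and hexokinase control, 8 were tested, and 7 rose and 0 fell (median 1.09), where 28.5% of all genes were called higher. PFKFB4 and PFKFB2, which encode enzymes that make and break the sugar phosphate activator of phosphofructokinase, rose by 2.12 and 1.31 on the log2 scale. PFKFB4 held 980, 721 and 778 normalized counts with 22d, against 214, 158 and 194 with DMSO. TXNIP, an arrestin-type protein gene known to restrain glucose uptake, rose by 1.20 and held 8693 ± 722 normalized counts in 22d libraries and 3785 ± 356 in DMSO libraries (n = 3 each, SD). TIGAR, whose product is known to slow glycolysis, rose by 0.99, at 875 ± 61.7 in 22d libraries and 439 ± 25.8 in DMSO libraries (n = 3 each, SD). PFKFB3 (0.92) and ARRDC4 (1.19) also rose. MLXIPL was called higher at 0.67 with overlapping groups, and its call was lost without 22d replicates 2 or 3, without DMSO replicate 1 and under quantile normalization (limma adjusted p between 0.068 and 0.14). MLXIP, at 0.19, did not pass, but was called higher under quantile normalization (0.50) and library totals (0.41).

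Transport of glucose and lactate was mixed. Of 14 tested genes, 4 rose, 6 fell and 4 did not pass, with a median of -0.30, near the 28.5% of all genes called higher and above the 29.6% called lower. SLC2A1, the widely expressed glucose transporter gene, stood at 3892 ± 764 normalized counts in 22d libraries and 3829 ± 215 in DMSO libraries (n = 3 each, SD), a log2 fold change of 0.01 (standard error 0.13, adjusted p = 0.97 by limma). SLC16A1, a monocarboxylate transporter gene that carries lactate, fell by 0.68 (limma adjusted p = 0.0014), and BSG, which encodes its partner protein at the membrane, fell by 0.44 (limma adjusted p = 0.0035); with quantile normalization BSG was at -0.17 and not called (adjusted p = 0.067). SLC16A3, the lactate exporter gene of glycolytic cells, did not pass (-0.11, limma adjusted p = 0.45). The largest changes were in low genes: SLC2A4 (-2.30) held 1.96 to 13.7 normalized counts with 22d and 30.0 to 48.9 with DMSO, and SLC16A8 (1.92) held 19.2 to 32.3 with 22d and 4.55 to 6.58 with DMSO. SLC2A11 rose by 1.10 and SLC2A13 by 0.57, the SLC2A13 call being lost without DMSO replicate 2 (adjusted p = 0.057), and SLC2A5 fell by 0.68, or by 0.44 without 22d replicate 1. SLC2A6 was called lower at -1.06, but its groups overlapped, and the call was lost without 22d replicate 1 (adjusted p = 0.071), without DMSO replicate 2 (0.093) and with DESeq2 (0.14).

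Of 9 genes of gluconeogenesis, the reverse pathway, 5 passed the filter, and these 5 were called lower (median -0.89), where 29.6% of all genes were. The call of PC (-0.48) was lost under library totals (-0.26, limma adjusted p = 0.15) and without DMSO replicate 2 (-0.37, limma adjusted p = 0.065). SLC37A4, which encodes the transporter that brings glucose phosphate into the endoplasmic reticulum, fell by 1.62, FBP1, the fructose bisphosphatase gene, by 1.08 and G6PC3, a glucose phosphatase gene, by 0.89. FBP1 held 440.1 ± 22.5 normalized counts in 22d libraries and 937 ± 131 in DMSO libraries (n = 3 each, SD). PCK1 had 0 reads in all 6 libraries.

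Of 13 tested genes of pyruvate entry into mitochondria, 1 rose, 4 fell and 8 did not pass (median 0.06), where 28.5% of all genes were called higher and 29.6% lower. PDHA1 and DLAT, which encode subunits of the pyruvate dehydrogenase complex, fell by 0.72 and 0.57, as did PDK3, a kinase that switches the complex off (-0.62). PDP1, a phosphatase that switches it on, rose by 0.37. The pyruvate carrier genes MPC1 (-0.06) and MPC2 (0.09) did not pass. Scaling by library totals gave 5 genes higher in this list in place of 1.

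Of 19 genes in branches that leave glycolysis, 3 rose and 11 fell (median -0.50), against 28.5% and 29.6% of all genes. PHGDH, which diverts phosphoglycerate into serine synthesis, fell to 275 ± 39.2 normalized counts with 22d, against 1223 ± 405 with DMSO (n = 3 each, SD), a log2 fold change of -2.11 (limma adjusted p = 1.5e-06). SORD and AKR1B1, the enzymes of the sorbitol route, fell by 1.15 and 0.96. In the pentose phosphate pathway, TKT rose by 0.84 and PGD by 0.60, whereas RPIA, RPE and TALDO1 of the same pathway fell by 0.91, 0.72 and 0.52. Under library totals and under quantile normalization, 5 genes of the list rose.

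MYC, which encodes a known activator of LDHA and other glycolysis genes, held 6549.9, 10694 and 12021 normalized counts with 22d, against 17223, 17575 and 15582 with DMSO. Its log2 fold change was -0.83 (standard error 0.18, adjusted p = 0.0014 by limma), and 22d replicate 1 was the lowest library. Without that library the MYC value was -0.56, still called (limma adjusted p = 0.0012). MXD1, which encodes a MAX partner that opposes MYC, rose by 0.87. KLF4, a myeloid differentiation factor gene, fell by 1.38. FOXO3, a forkhead factor gene, rose by 0.75. In the list of 15 tested regulators, 4 rose and 3 fell, against 28.5% of all genes higher and 29.6% lower.

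HIF1A, which encodes an oxygen-regulated activator of glycolysis genes, rose. It held 461, 319 and 320 normalized counts with 22d, against 172, 200 and 250.1 with DMSO, a log2 fold change of 0.81 (standard error 0.18, adjusted p = 0.0021 by limma). Of 17 tested genes among the hypoxia factors, their regulators and targets outside glycolysis, 11 rose and 1 fell (median 0.55), against 28.5% of all genes higher and 29.6% lower. DDIT4, a stress-induced inhibitor of mTOR signalling, rose by 2.03, BNIP3L, a mitophagy receptor gene, by 1.80, and EPAS1, a second hypoxia factor gene, by 1.32. VEGFA, the angiogenic growth factor gene, did not pass (-0.09), and CA9, a classic hypoxia marker gene, had at most 1 read in a library. The single fall, VHL (-0.28), lost its call when any 1 of 5 libraries was left out (each but DMSO replicate 3; limma adjusted p between 0.051 and 0.091) and under quantile normalization and library totals.

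**Figure D4:**
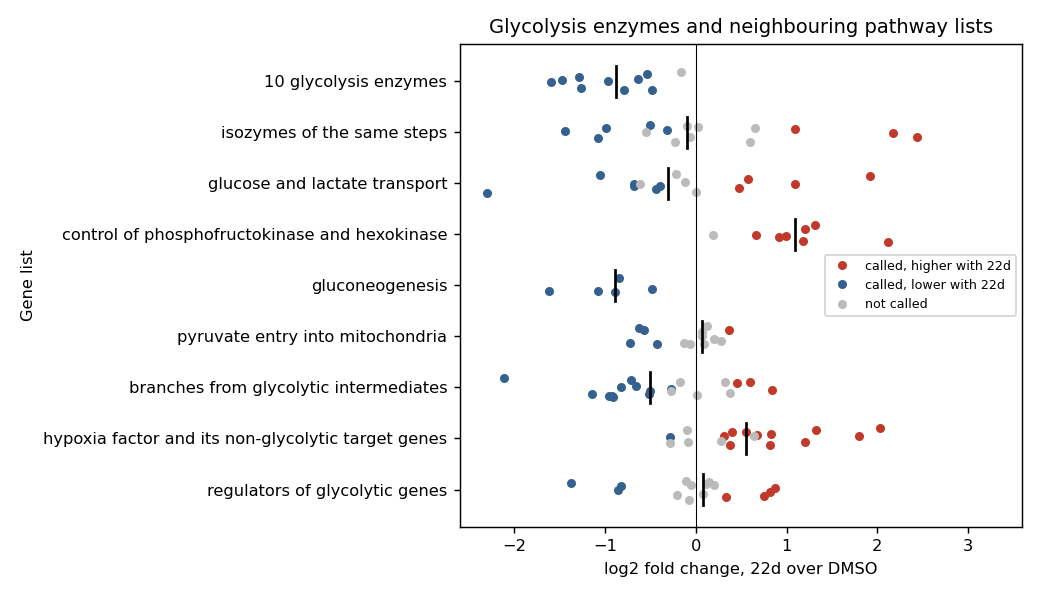
The log2 fold change (22d over DMSO) of each tested gene in the 10 glycolysis enzymes and 8 related lists; red genes were called higher with 22d, blue genes lower and grey genes were not called, and black bars mark list medians. The enzymes (median -0.88) and gluconeogenesis (-0.89) lie to the left, and the control genes of phosphofructokinase and hexokinase (1.09) and the hypoxia list (0.55) to the right.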

How the data were processed

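RNA of MV4-11 cells was sequenced in 6 libraries, 3 with 22d and 3 with DMSO, from 1 microgram of total RNA each. The submitters' processing notes name hg38 and the tools STAR, HTSeq, cutadapt, FastQC and DESeq2; versions, annotation, filters and strand setting are not given in the sources used here. The deposited values are, per the file headers, 1 normalized signal for each library, the mean signal, and the authors' log2 fold change, standard error, test score, p-value and adjusted p-value. Columns were assigned by arm and number. The signal is a read count divided by a size factor: 100% of values were whole reads to within 0.001, and 1 read was worth 0.839 to 1.14 normalized counts.

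The main test was limma-trend (limma 3.58.1, R 4.3.3) on log2(value + 1), which understates changes of low genes, for 13297 genes averaging 10 or more. It called 7718 genes, 3784 higher and 3934 lower. edgeR 4.0.16 and DESeq2 1.42.0 were run on the recovered reads. Isozyme ratios used exact permutation tests (scipy 1.17.1), and figures matplotlib 3.10.9 with Python 3.11.15. The labels do not say that a replicate number marks a shared batch, so the main test used no block. Same-numbered libraries did not deviate together (r between -0.10 and -0.02 across genes). Named were the 10 enzymes, isozyme pairs, MYC, HIF1A and up to 3 largest called rises and falls per list; other list genes were named after their values were seen, and some are not reported here. The members and lists were chosen with earlier results of these data known. Alternatives were 2 pseudocounts, 2 filters, 2 scalings, a replicate block, 2 tools and leaving out each library.

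Near-identical copies can share reads: GENCODE 29 lists 94 pseudogenes named for the 10 enzymes, of which 1 has a row, with 0 reads. How reads matching several places were counted is not given in the sources used here, so levels of the enzymes with many copies are uncertain.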

Additional observations from a re-analysis of the deposited data

How the results depend on the processing

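The count of 9 enzymes lower and 0 higher was the same under every alternative run, and so was every enzyme's direction and call, except that HK2, not called in any setting, had a positive log2 fold change under quantile normalization (0.13) (adjusted p = 0.24) and library totals (0.058, adjusted p = 0.63). Under library totals the all-gene median log2 fold change was 0.22, against 0.01, and 65.6% of calls were higher, against 49.0%. With the replicate block the 9 calls remained. The only count it moved by over 1.5 times was that of falls in the hypoxia list, VHL alone (0 called with the replicate block), as under quantile normalization, library totals (0 each) and without single libraries (0 to 1, the 1 without DMSO replicate 2 being ERO1A in place of VHL); the cause was not tested. Falls among isozymes numbered 2 under library totals, 3 with DESeq2 and 2 to 5 without single libraries. Rises in the pyruvate list numbered 3 under quantile normalization, 5 under library totals and 2 with edgeR. Rises among branch genes numbered 5 under both scalings, and rises among regulators 8 under both. Transport rises numbered 2 to 4 without single libraries. Signs turned for HK1 (0.16 under quantile normalization, 0.13 under library totals), LDHB (0.021 under quantile normalization), PFKM (-0.21 under quantile normalization, and -0.024 to 0.10 without single libraries) and ALDOA to GAPDH (0.10 under quantile normalization). ENO2 passed under library totals (0.86, adjusted p = 0.029) and without 22d replicate 2 (0.93, adjusted p = 0.020). Without the 100 highest genes, 4 of them enzymes, in the denominator, the summed share was 1.25% with 22d and 1.85% with DMSO. The design's depth does not limit the enzymes; 8 isozymes lay under the filter.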

Other observations

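PGAM4, a retrocopy of PGAM1 with too few reads to be tested, was listed at 0, 0.913 and 0 normalized counts with 22d, against 6.83, 4.14 and 9.87 with DMSO, and so moved in the direction of PGAM1. Whether its reads belong to PGAM1 was not tested.

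Over the 6 libraries, the median profile of the 10 enzymes, centred on its mean, was -0.62, -0.41 and -0.30 on the log2 scale with 22d and 0.43, 0.60 and 0.32 with DMSO. Of 10259 other genes averaging 100 normalized counts or more, the 5 with the smallest root mean square difference from that profile were DPM2 (0.0171 log2 units), RABL6 (0.0197), LRRC14 (0.0219), RNPEP (0.0309) and SLC25A22 (0.0312). DPM2, which encodes a subunit of the dolichol phosphate mannose synthase, held 828, 977 and 1027.5 normalized counts with 22d, against 1683, 1939 and 1600.5 with DMSO. The likeness is a description over 6 libraries of 2 groups.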
